A study of Homo sapiens with 3 samples.

Results

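DUX4, FRG1, FRG2 and FRG2B are 4 protein-coding genes near the ends of chromosome arms 4q and 10q. They were chosen by the high scores that SOX4 ChIP-seq summits had beside DUX4 and FRG2B in earlier results of these same libraries, so every value below is a description and carries no test. A summit, the single base at which a called peak is highest, belonged to the set when it lay inside 1 of the 4 genes or within 100 kb of its ends on GRCh38. By that rule 26 of 7511 summits were members, 9 of 1368 in replicate 1, 7 of 1713 in replicate 2 and 10 of 4430 in replicate 3. They are set beside the 230 other summits in the last 1 Mb at either end of an assembled chromosome, 57, 51 and 122 per library.

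The libraries were made from BT549, an established line of human TNBC (triple-negative breast cancer) cells grown in RPMI-1640 medium with serum and insulin. All 3 form 1 group, carry the letters UT in their titles, which the labels do not spell out, and share cell line, passage number and antibody. No second condition, input or IgG library was analysed here. Chromatin was fixed with DSG and formaldehyde, and SOX4, a transcription factor with an HMG-box DNA-binding domain, was pulled down before paired-end sequencing. No source used here says whether the replicates were separate cultures, so their spread may be technical. ChIP-seq measures no expression, and the identity of the cells was not checked here.

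DUX4 encodes a transcription factor with a pair of homeodomains. A copy of its reading frame sits in every unit of the D4Z4 macrosatellite, a tandem array near the 4q telomere, and a near-identical array lies near the 10q telomere. The arrays are normally silenced in somatic cells, and loss of that silencing in skeletal muscle underlies facioscapulohumeral muscular dystrophy (FSHD). FRG1, FRG2 and FRG2B are named after the FSHD region: FRG1 encodes a nuclear and actin-associated protein, and FRG2 and FRG2B are near-identical copies on 4q and 10q. Because short reads cannot always be assigned to 1 copy, summits in such sequence mark the copy on which reads were placed.

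The promoters show how alike these copies are. RefSeq sequences of GRCh38.p14 were read 250 bases upstream of each gene start, and all 4 members and FRG2C, a further FRG2 copy on 3p, had an entry. FRG2 and FRG2B were identical at 249 of 249 bases compared (offset by 1 base), so FRG2 stands for both. FRG2C differed from FRG2 at 8 of 250 bases (96.8% identical). Capitals mark the 8 differing bases in FRG2C, and elsewhere a match to ACAAAG or ACAATG, letters of the HMG-box core that share their first 4 bases, or to CACCTG, an E-box taken for comparison. The windows are FRG2 at chr4:190027257-190027506 (minus strand), FRG2C at chr3:75664078-75664327 (plus), DUX4 at chr4:190173524-190173773 (plus) and FRG1 at chr4:189940622-189940871 (plus).
FRG2: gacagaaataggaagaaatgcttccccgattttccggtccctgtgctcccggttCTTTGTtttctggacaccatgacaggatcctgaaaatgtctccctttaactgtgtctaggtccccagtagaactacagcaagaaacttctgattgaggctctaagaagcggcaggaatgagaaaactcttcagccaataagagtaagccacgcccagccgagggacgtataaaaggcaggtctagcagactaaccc
FRG2C: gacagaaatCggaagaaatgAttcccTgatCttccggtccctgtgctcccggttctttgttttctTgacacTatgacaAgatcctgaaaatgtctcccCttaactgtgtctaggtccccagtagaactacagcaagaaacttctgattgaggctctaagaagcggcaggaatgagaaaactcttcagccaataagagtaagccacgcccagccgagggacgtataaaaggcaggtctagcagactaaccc
DUX4: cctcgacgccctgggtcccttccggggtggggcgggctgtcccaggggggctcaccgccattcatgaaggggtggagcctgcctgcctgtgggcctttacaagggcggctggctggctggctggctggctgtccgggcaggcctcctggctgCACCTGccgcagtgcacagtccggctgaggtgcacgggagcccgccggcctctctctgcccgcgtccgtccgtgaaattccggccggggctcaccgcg
FRG1: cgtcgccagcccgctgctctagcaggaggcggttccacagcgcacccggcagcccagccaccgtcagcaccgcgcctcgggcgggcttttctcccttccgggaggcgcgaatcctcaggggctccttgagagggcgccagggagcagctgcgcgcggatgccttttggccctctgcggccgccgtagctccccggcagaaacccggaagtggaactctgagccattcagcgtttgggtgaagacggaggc

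Searched on both strands, ACAAAG occurred once in each of FRG2, FRG2B and FRG2C, on the minus strand relative to the gene, and in neither DUX4 nor FRG1. It occurred in 13.7% of the 35116 promoters of the table. ACAATG was in none of the 5 windows and in 9.29% of all promoters. The E-box letters CACCTG, in 17.5% of all promoters, were found once in DUX4. A match of 6 letters describes the sequence and is no binding site. The DUX4 and FRG1 windows held 72.8% and 69.2% G and C, the FRG2 and FRG2B windows 48.4% each, against a median of 58% over the table. None of the 5 windows held a summit. The nearest lay 12 bp from the FRG1 window, in replicate 3, and those nearest to the DUX4 and FRG2 windows lay 4.02 to 4.07 kb and 4.73 to 4.95 kb away.

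The member summits formed 13 regions when summits within 200 bp of each other were joined: 10 on chromosome 4 and 3 on chromosome 10. Of the 13, 5 held all 3 libraries, 3 held 2 and 5 held 1. Of the 171 other terminal regions, 12.3% held all 3 libraries and 22.2% at least 2. For all 6011 regions on assembled chromosomes these shares were 4.46% and 14.4%. The windows were chosen for strong shared summits, so a higher share among member regions is no finding. Each of the 4 genes had a region of all 3 libraries inside it or within 100 kb, as did 3.12% of the 19884 coding genes of the table. The 4 genes are not independent in this count, since FRG1, FRG2 and DUX4 lie on 1 arm and share regions, and the rule was made with these values known.

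**Figure D1:**
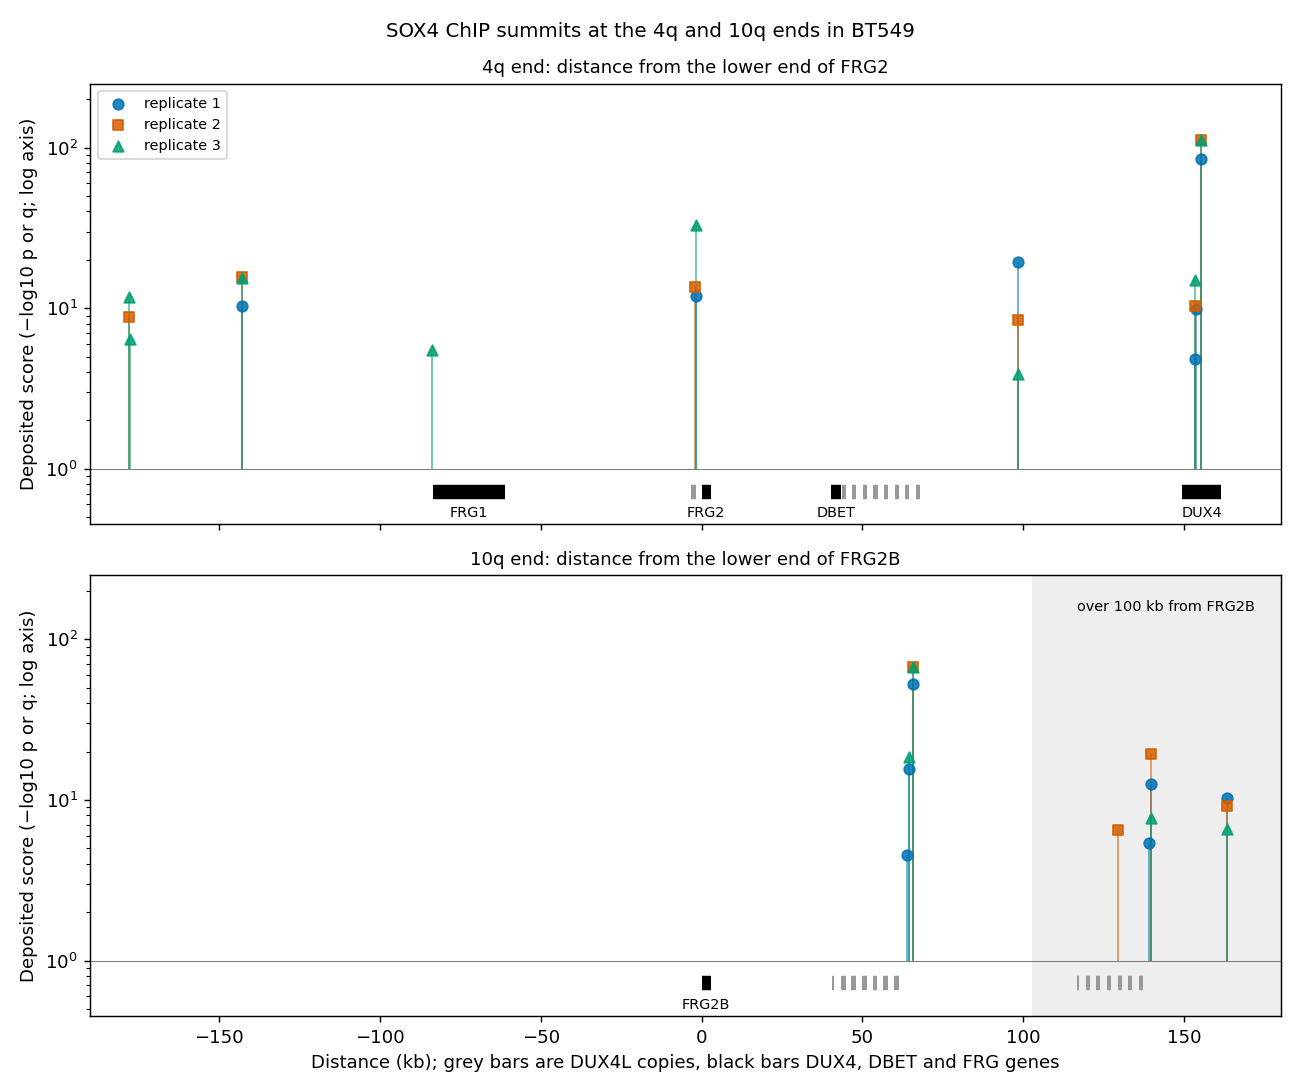
Score of each summit (−log10 of a p or q value, log axis) against its distance in kb from the lower end of FRG2 (4q, top) or FRG2B (10q, bottom); symbols stand for the 3 libraries and bars for genes and DUX4L copies. The highest summits, 84.3 to 112 at 4q and 52.6 to 67.3 at 10q, lie inside DUX4 and just distal to the first 10q array, and the shaded summits lie outside the 100 kb window.

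DUX4 carried the highest member summits, and they were inside the gene rather than at its start. The gene (ID 100288687) spans chromosome 4, 190173774 to 190185911, 28.6 kb from the end of the chromosome. Its main summit was at 190179539 in replicate 1, 190179694 in replicate 2 and 190179667 in replicate 3, with scores of 84.3, 112 and 111. These positions are 5765, 5920 and 5893 bp past the gene's start, a spread of 155 bp between libraries. In their lists the scores ranked 7 of 1368, 4 of 1713 and 1 of 4430, the last tied with a summit at the end of 18p. The score depends on each library's depth and is compared within its own list, so the lower number in replicate 1 is no measure of weaker binding. Exons and introns were not told apart, because the gene table gives gene ends alone.

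A second, weaker DUX4 site was also found in every library. It lay at 190177796, 190177817 and 190177839 in replicates 1, 2 and 3, 4022, 4043 and 4065 bp past the start, with scores of 4.81, 10.2 and 14.9. The 3 positions lay within 43 bp, a narrower spread than at the main site. In replicate 1 this site stood above 29.8% of its list, and in replicates 2 and 3 above 85.6% and 97.1%. Replicate 1 had a further summit at 190178193 (score 9.93), 376 bp from the nearest of replicate 2 and 354 bp from that of replicate 3. No other summit fell inside DUX4.

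FRG2B lay beside the next highest member site. The gene (ID 441581) is at chromosome 10, 133623895 to 133626795, and no library had a summit within 5 kb of it. The site was 62.8 kb distal, at 133689580, 133689583 and 133689625 in replicates 1, 2 and 3, with scores of 52.6, 67.3 and 67.1. The ranks were 21, 16 and 6, and the 3 summits lay within 45 bp. A weaker site at 133688480 in replicate 1 (score 15.7) and 133688476 in replicate 3 (18.5) had no partner in replicate 2, whose nearest summit was the main one, 1103 and 1107 bp away. Replicate 1 alone had a summit at 133687664, with a score of 4.55. Each of the 3 regions lay beyond the first 10q array as seen from FRG2B.

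The high sites were then placed against the genes that 4q and 10q have in common. The order of genes is shared between the arms: from FRG2 or FRG2B, RARRES2P4 and RARRES2P2 start at 13.4 kb on both, AGGF1P1 and AGGF1P2 at 16.6 and 17.99 kb, CLUHP4 and CLUHP5 at 36.7 and 36.4 kb, and the first full DUX4L unit (DUX4L8, DUX4L25) at 43.6 and 43.3 kb. Past the arrays the arms differed more, with RPL23AP84 at 171 kb and RPL23AP60 at 154 kb. All of these but the FRG2 genes are pseudogenes. Distances are in coordinates of the assembly, whose gaps were not checked. On 10q the table lists the DUX4 copies in a block of 6 that ends with DUX4L20 and a second block of 6 that ends with DUX4L15. On 4q the listed units end with DUX4L2, and DUX4, listed with 12138 bases, starts 81.5 kb past it. Distances were taken from the lower end of DUX4 and of DUX4L20 and DUX4L15, a comparison chosen after the values were seen. The main 10q summits lay 5912, 5915 and 5957 bp past the lower end of DUX4L20, against the 5765 to 5920 bp given above for DUX4. The single replicate 1 summit at 133687664 lay 3996 bp past it, beside 4022 to 4065 bp for the weaker DUX4 site. The stronger 10q neighbour, of replicates 1 and 3, lay 4812 and 4808 bp past DUX4L20, where DUX4 had no summit. Past DUX4L15 the summits were 3297 and 3888 bp away in replicate 1, 3685 bp in replicate 2 and 3865 bp in replicate 3, with scores of 5.43, 12.5, 19.2 and 7.68, and none was found near 5.9 kb. It is DUX4L15, not DUX4L20, that is the last listed unit before RPL23AP60, so the table does not settle which block corresponds to DUX4. Annotated lower ends need not be the same base of a unit, since DUX4L20 is listed with 1525 bases and DUX4L15 with 1279.

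**Figure D2:**
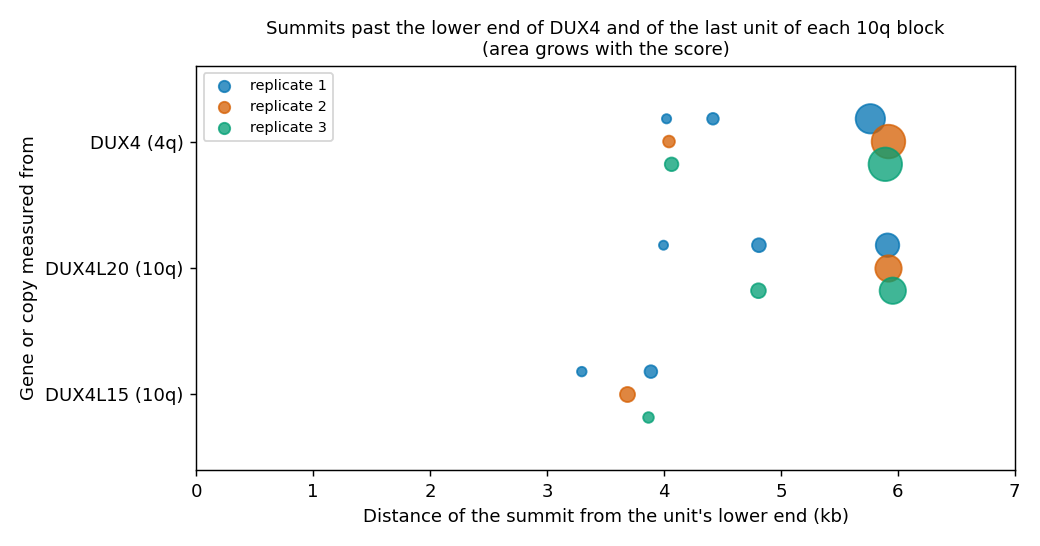
Distance in kb of each summit from the lower end of DUX4 (4q) and of DUX4L20 and DUX4L15, the last listed units of the first and second 10q blocks; colour gives the library and the area of a point grows with its score. The highest summits fall between 5.77 and 5.96 kb for DUX4 and DUX4L20, and those of DUX4L15 between 3.30 and 3.89 kb.

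The listed array units held 1 summit in all. The 8 DUX4L units before DUX4 on 4q, spaced by 3293 to 3300 bp over 24.4 kb, held 0 summits in each library. The first 10q block of 6 units, over 18.04 kb, also held 0, and the second held 1, in replicate 2 inside DUX4L13 (score 6.50). DBET, the long non-coding RNA gene at the proximal edge of the 4q array, had no summit within 5 kb. Whether reads could be placed uniquely within the units was not tested.

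Assembly gaps between the listed 4q units and DUX4 were not checked, so distances there are in listed coordinates. In that stretch lay a site of all 3 libraries with no gene in the table. It was at 190122723, 190122822 and 190122847 in replicates 1, 3 and 2, 50927 to 51051 bp before DUX4 and 95467 to 95591 bp past FRG2. Its scores of 19.4, 8.45 and 3.92 in replicates 1, 2 and 3 ranked 108, 355 and 3838. In replicate 3 it stood above 10.4% of the list, against 92.1% in replicate 1 and 79.2% in replicate 2, so the site is found in all lists but not at a like height.

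FRG2 (ID 448831), at 190024367 to 190027256, had its nearest summit downstream of its end, inside the pseudogene DUX4L9. DUX4L9, also called DUX4C, is a lone inverted DUX4 copy at 190021169 to 190022665. The summits were at 190022518, 190022311 and 190022530 in replicates 1, 2 and 3, with scores of 11.8, 13.5 and 32.7 and ranks of 223, 175 and 29. Replicates 1 and 3 were 12 bp apart and shared the site. Replicate 2 was 207 bp from replicate 1, past the 200 bp limit, and was counted as unshared. At a limit of 500 bp the 3 summits form 1 region.

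FRG2C on 3p repeated this arrangement. The pseudogene DUX4L26 lies 1757 bp from FRG2C, as DUX4L9 lies 1701 bp from FRG2, and each held a summit of all 3 libraries. In DUX4L26 these were at chromosome 3, 75669224, 75669293 and 75669297, with scores of 20.5, 22.7 and 23.1 and ranks of 103, 89 and 61 in replicates 1, 2 and 3. Measured from the pseudogene end that faces the FRG2 copy, they lay at 293, 362 and 366 bp, against 147, 354 and 135 bp in DUX4L9. The third such pair, DUX4L34 beside FRG2EP on chromosome 20, held 1 summit, of replicate 3, at 282 bp from the facing end (score 5.38). FRG2B has no DUX4L copy listed on that side, and no summit was found there.

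FRG1 (ID 2483), at 189940872 to 189963192, had no site of all 3 libraries near its ends. The nearest summit was at 189940610 in replicate 3, 262 bp before the gene and inside FRG1-DT, the divergent long non-coding RNA gene. Its score of 5.49 stood above 47.9% of the list, and replicates 1 and 2 had no summit within 59.1 kb of FRG1. Within FRG1-DT a site 59429 to 59489 bp before FRG1 held all 3 libraries, at 189881443, 189881383 and 189881431 with scores of 10.3, 15.7 and 15.3. Another at 189846268 in replicate 2 and 189846299 in replicate 3 scored 8.77 and 11.7, 94604 and 94573 bp before FRG1 and thus just inside the 100 kb limit. Replicate 3 had a further summit at 189846750 (6.41).

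The highest summit within 100 kb of each gene gave the same first and second place in every library but not the same order below. In replicates 1 and 2 it fell from DUX4 (84.3, 112) to FRG2B (52.6, 67.3). FRG2 then had 19.4 and 13.5 and FRG1 11.8 and 15.7, so these 2 change places between libraries. In replicate 3 the values were 111 and 67.1, and FRG1 and FRG2 shared their highest, the DUX4L9 summit of 32.7.

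Just outside the 100 kb window lay further 10q summits. The nearest were the replicate 2 summit in DUX4L13, 127 kb from FRG2B, and those past DUX4L15, 136 to 137 kb away. A site of all 3 libraries at 133787325 to 133787359 lay 10.1 kb from the end of chromosome 10 in the assembly's coordinates. Its scores were 10.3, 9.20 and 6.63 in replicates 1, 2 and 3. On the proximal side no library had a summit over several megabases of either arm. Before the first member summit the gap was 4.74, 3.47 and 3.12 Mb on chromosome 4 in replicates 1, 2 and 3, and 7.97, 8.90 and 7.87 Mb on chromosome 10. Chromosome 4 held 55, 47 and 154 summits in all, and chromosome 10 held 67, 60 and 161. Gaps elsewhere on these chromosomes were not compared, so these are not shown to be unusual.

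Against other summits near chromosome ends, members scored higher at the median, a property the choice of genes builds in. The median member score was 11.8, 13.5 and 15.1 in replicates 1, 2 and 3, and that of the other terminal summits 7.26, 8.15 and 5.98. The ranges overlapped in every library: members ran from 4.55 to 84.3, 8.45 to 112 and 3.92 to 111, the others from 3.36 to 88.1, 3.09 to 103 and 2.74 to 111. Scores above 20 were held by 2 of 9, 2 of 7 and 3 of 10 members and by 5 of 57, 8 of 51 and 5 of 122 others.

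**Figure D3:**
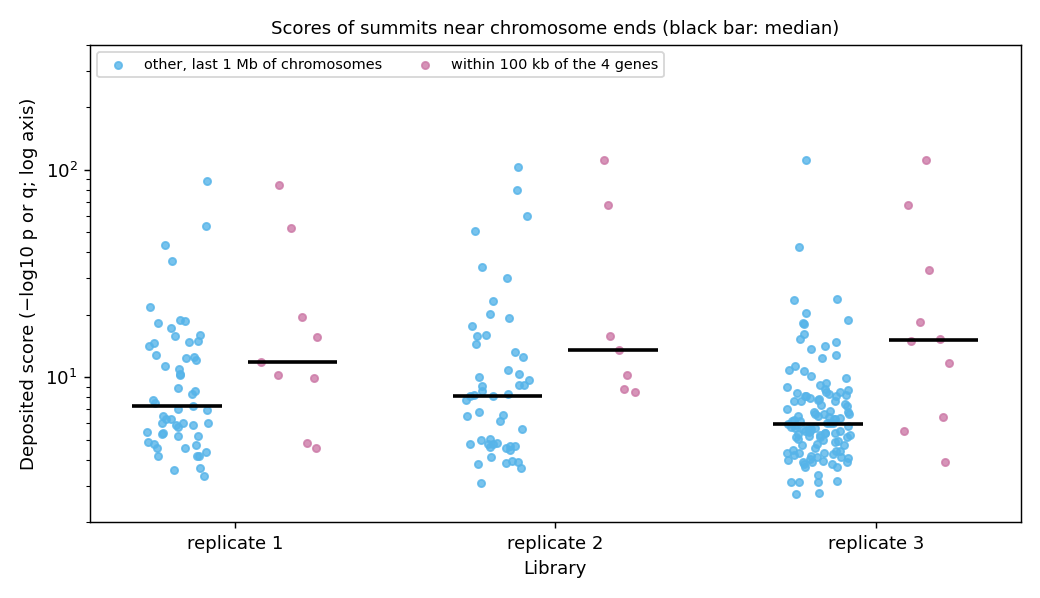
Score (−log10 of a p or q value, log axis) of each summit within 100 kb of the 4 genes and of each other summit in the last 1 Mb of a chromosome, by library; black bars are medians. Member medians are 11.8, 13.5 and 15.1 against 7.26, 8.15 and 5.98, and the ranges overlap in each library.

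Sharing between libraries was counted next. A partner within 200 bp in another library was found for 7 of 9 (77.8%, exact 95% interval 40.0 to 97.2%), 6 of 7 (85.7%, 42.1 to 99.6%) and 8 of 10 (80.0%, 44.4 to 97.5%) members. For the other terminal summits the counts were 32 of 57 (56.1%, 42.4 to 69.3%), 32 of 51 (62.7%, 48.1 to 75.9%) and 33 of 122 (27.0%, 19.4 to 35.8%). The windows were chosen for their strong shared summits, so higher sharing among members is built in by the choice. The intervals treat neighbouring summits as independent, cover counting error alone and are no test of the difference. All 3 lists were then cut to summits at or above their median score, so a partner had to pass the cut too. At that setting 52.9, 78.8 and 34.3% of the other terminal summits of replicates 1, 2 and 3 had a partner. For members the shares were 85.7, 85.7 and 87.5%. The other terminal shares were thus higher than without the cut in replicates 2 and 3, and lower in replicate 1. Because the cut also removed partners, these changes do not isolate a summit's own score. Read depth is unknown.

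**Figure D4:**
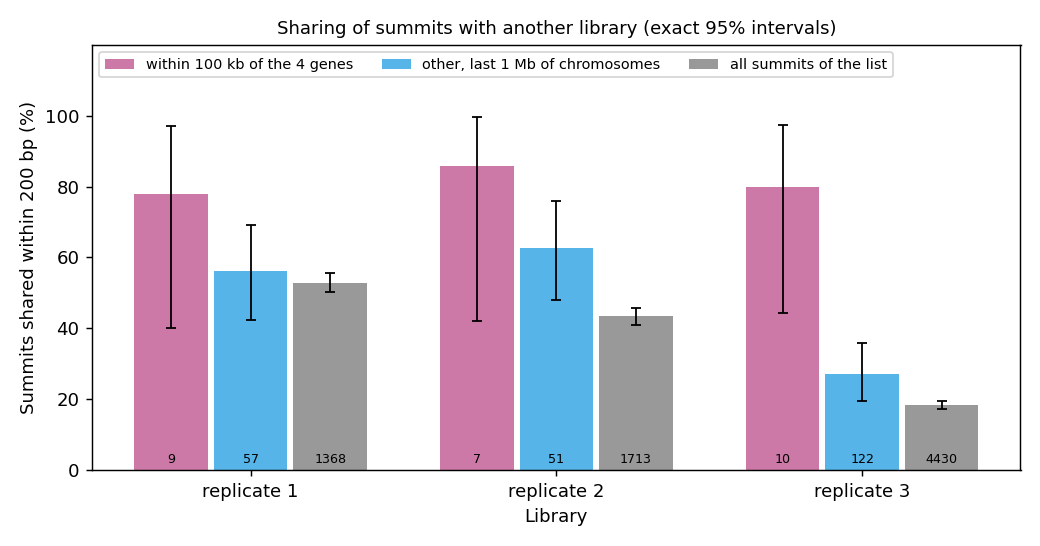
Percent of summits with a summit of another library within 200 bp, by library, for the 4 genes' windows, other summits in the last 1 Mb of chromosomes and the whole list; bars carry exact 95% binomial intervals and the number of summits at their base. The windows reach 77.8, 85.7 and 80.0%, above the other bars of each library, with wide intervals from 7 to 10 summits. They were chosen for strong shared summits, so this order is built in.

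Among the 26 terminal regions of all 3 libraries, ordered by their worst rank in any list, the DUX4 site was tied with 1 on 18p for the lowest worst rank, 7, and the FRG2B site came 4th. The 4q site at FRG1-DT was 10th, the weaker DUX4 site 19th and the one between the listed units and DUX4 25th. The region most like DUX4 was at chromosome 18, 108254 to 108258, 34.7 kb from the tubulin gene TUBB8B, with scores of 88.1, 103 and 111. It too had a weaker neighbour in each library, 1529, 1585 and 1679 bp away, which scored 5.73, 14.4 and 9.88. The corresponding spacings at DUX4 were 1743, 1877 and 1828 bp. The next 3 regions were on 1p inside pseudogenes of mitochondrial genes, 2 in MTCO1P12 and 1 in MTATP6P1, nearest to the coding gene LOC105378947. The fifth was on X, 4.93 kb from GTPBP6, with scores of 14.8, 33.9 and 23.4.

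The table lists 51 DUX4L pseudogenes, 9 on chromosome 4, 14 on chromosome 10 and 28 elsewhere. A summit lay inside 6 of the 51 (11.8%), against 0.993% of the 16917 pseudogenes of all kinds. DUX4L9 and DUX4L13 are among the 6 and lie on 4q and 10q, and the DUX4L9 summits are members of the chosen set. Of the 28 copies on other chromosomes, 4 held a summit (14.3%): DUX4L26, DUX4L34, DUX4L44 and DUX4L50. Gene length, neighbours and copy number were not matched, and the copies lie in a few clusters. All 3 libraries were found inside DUX4L26 and DUX4L44. DUX4L44, on chromosome 22, had them at 12693818, 12693785 and 12693827, with scores of 10.1, 5.02 and 11.2, at 275 to 317 bp from its higher end. A second site of all 3 libraries lay 299 to 427 bp below it. Inside or within 5 kb, 8 of the 28 had a summit (28.6%) and 6 had all 3 libraries (21.4%), against 3.04% and 0.39% of all pseudogenes. These 6 include DUX4L16, DUX4L17, DUX4L18 and DUX4L19 of chromosome Y, whose summits lay outside the copies and are in part counted for 2 neighbouring copies. They mark where reads were placed, and whether these cells carry a chromosome Y was not checked here. The highest there, between DUX4L16 and DUX4L17 at 11312429 to 11312525, scored 42.0, 50.9 and 39.8.

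**Figure D5:**
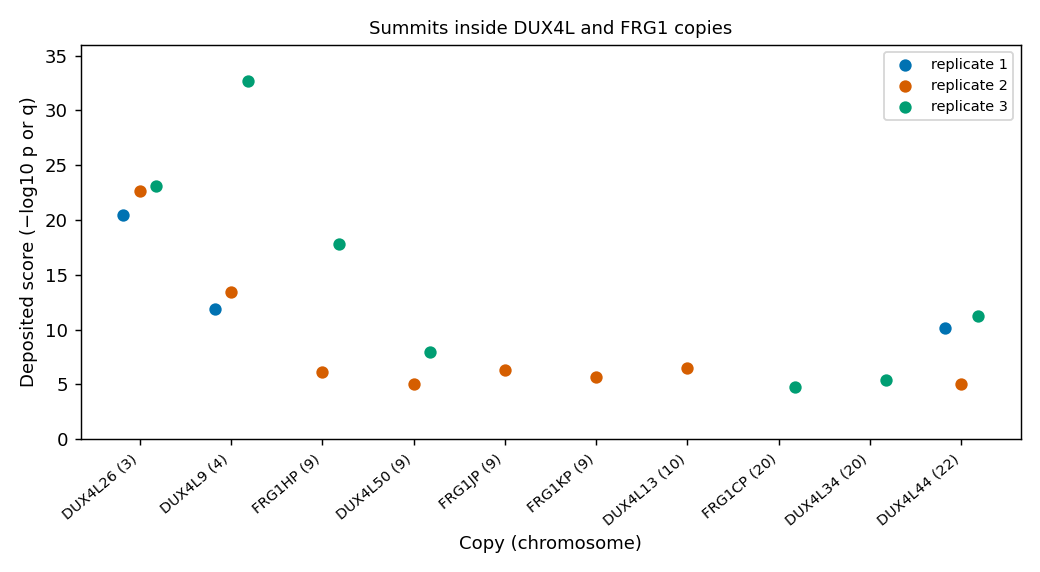
Score (−log10 of a p or q value) of each summit inside a DUX4L or FRG1 copy other than DUX4 itself, by copy with its chromosome in brackets; colour gives the library. DUX4L26, DUX4L9 and DUX4L44 hold all 3 libraries, and the highest value is 32.7 in DUX4L9.

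FRG copies elsewhere were counted in the same way. Of the 9 FRG1 pseudogenes, 4 held a summit (44.4%), against 0.993% of all pseudogenes. These were FRG1HP, FRG1JP and FRG1KP on chromosome 9 and FRG1CP on chromosome 20. None of the 4 held all 3 libraries inside, and each summit inside them was in a region of 1 library. FRG1JP and FRG1KP held a summit of replicate 2 alone, with scores of 6.33 and 5.64. All 3 libraries had a summit within 5 kb of the lower end of FRG1HP. Those of replicates 1 and 2 lay 227 and 294 bp below it (scores 13.6 and 8.64). That of replicate 3 lay 240 bp inside (17.8), over 200 bp from the others, and was not joined with them. FRG1CP had a replicate 3 summit of 4.73, 90 bp inside its higher end. None of the 10 FRG2 pseudogenes, and none of FRG2, FRG2B and FRG2C, held a summit inside. Gene length was not matched: FRG1HP spans 40992261 to 41039103 of its chromosome, and the FRG2 pseudogene FRG2EP 29414075 to 29416961. The difference between the families was not tested.

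Genes of the same pathway were then counted for a region within 5 kb of either end. In the DUX and FRG family, 3 of 7 coding genes had a region of at least 2 libraries (DUX4, FRG2 and FRG2C), against 2.98% of all coding genes, and 4 of 7 had a summit of any library, against 17.9%. FRG1 was the fourth, and DUXA, DUXB and FRG2B had none. DUX4 counts through its weaker site, because its main site lies over 5 kb from both ends. Since 4 of the 7 are the genes chosen here, this share is no finding. Of 15 coding genes of distal 4q35, 3 of them chosen here, 2 had a region of at least 2 libraries, FRG2 and DUX4. Both are chosen genes, so this share is no finding either. With any library 5 did, through FRG1, also chosen here, SLC25A4, which encodes a mitochondrial ADP/ATP carrier, and FAT1, an atypical cadherin gene. SLC25A4 had a replicate 1 summit 88 bp below its lower end (score 5.66). FAT1 had a replicate 3 summit inside it, 2802 bp from its nearer end (5.12). Of 20 coding genes of distal 10q26.3, 0 had a summit of any library (exact upper limit 16.8%). The nearest among them after FRG2B was SYCE1, a synaptonemal complex gene, 119 to 121 kb from its nearest summits.

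Genes known to act on the D4Z4 array included 4 with a region of at least 2 libraries at their ends, and known DUX4 targets included 0. Among 15 regulators, 9 had any summit this close (60.0%, exact 95% interval 32.3 to 83.7%) and 4 a region shared by libraries (26.7%, 7.79 to 55.1%), with 17.9% and 2.98% of all coding genes as background. The 4 were LRIF1, which encodes a partner of the array repressor SMCHD1, the histone methyltransferase gene EZH2, the nucleolin gene NCL and CBX3, which encodes the heterochromatin protein HP1 gamma. Distances are to the nearer of the 2 gene ends, whether start or finish. At LRIF1, replicate 2 scored 5.11 at 22 bp and replicate 3 scored 9.03 at 83 bp. At NCL, replicate 1 scored 5.20 at 193 bp and replicate 3 scored 6.995 at 168 bp. CBX3 had replicates 2 and 3 at 114 and 97 bp (3.09 and 6.42), and EZH2 the same libraries at 408 and 447 bp (7.31 and 6.05). SMCHD1 had a replicate 3 summit alone, at 372 bp with a score of 5.44. None of the 4 had all 3 libraries, and none of these scores reached that of the main DUX4 site. Of 20 genes that DUX4 is known to activate, among them ZSCAN4, LEUTX and the PRAMEF genes, 0 had any summit at that distance (exact upper limit 16.8%). Both lists were chosen with earlier results of these libraries known, so their shares and intervals are a description and no test. The difference between the 2 lists was not tested.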

How the data were processed

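Each of 3 SOX4 ChIP-seq libraries of BT549 came with 1 list of single-base summits. Per the submitters' processing notes the authors used BWA, SAMtools and MACS2, with no versions given, and named hg19. The positions are those of GRCh38: 41 contig names carry KI270 identifiers, and the highest position on chromosome 17 is 83247361. The lists carry the authors' −log10 score, from either p or q values; which of these is not given in the sources used here. It was used to describe and rank summits within a list. Peak widths, read counts and a control were not used here. The filter on multiply mapped reads is not given in the sources used here.

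The members and gene lists were chosen with earlier results of these data known, and no test was made. A partner at up to 200 bp in a different library made a summit shared, and joined summits formed regions. Genes came from the RefSeq table of GRCh38.p14 (19884 coding genes), leaving out 583 rows placed on sequence outside the assembled chromosomes. Chromosome lengths are those of GRCh38. Intervals are exact binomial intervals. Named were the 4 members, genes at member regions, the coding genes nearest to the 5 best terminal regions of 3 libraries outside chromosome 8, and at most 6 genes per list; other copies and single summits were named after their values were seen. Python 3.11.15, pandas 2.3.3 and scipy 1.17.1 were used, and the sharing step was tested on simulated data. Protein sequences were not used here.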

Additional observations from a re-analysis of the deposited data

How the results depend on the processing

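Of 151 recomputed values, 129 stayed within 1.5 times a count, inside the interval of a share or within 1 SD of a median, and 22 did not. Some could not change under their setting, such as the medians of the kept libraries when another was left out. Member shares were judged against wide intervals, in replicate 1 from 40.0 to 97.2%. The tally is thus no measure of robustness. The number of member regions of at least 2 libraries, 8, was 3 within 50 kb of the genes and 2 among scores above 20, a threshold added after the data were seen; leaving out 1 library gave 5 (without replicate 3) to 7. Within 50 kb the windows held 4, 3 and 4 summits of replicates 1, 2 and 3, and the replicate 3 median was 23.8; within 200 kb it was 13.3. A limit of 500 bp made 100% of the replicate 2 members shared. Other terminal summits of replicate 2 had a median of 6.83 in the last 2 Mb. Their shared percentage was 78.8 with all 3 lists cut to summits at or above their median score.

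The family list had 0 genes within 1 kb of gene ends. Distal 4q35 had 0 within 1 kb, 5 with any library and 1 with all 3. The D4Z4 regulators had 1 at or above the median score, 9 with any library and 0 with all 3. Leaving out each library in turn gave 2 to 3 family genes, 1 (without replicate 1 or 3) to 2 in distal 4q35, 0 in distal 10q26.3 and among DUX4 targets, and 0 (without replicate 3), 1 (without replicate 2) and 3 (without replicate 1) regulators. The shared percentage of members then ran from 55.6 to 77.8 in replicate 1, 71.4 to 85.7 in replicate 2 and 60.0 to 70.0 in replicate 3. No paired analysis was possible because the libraries form 1 group. Depth is unknown, so a missing summit does not show absence of binding.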

Other observations

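Replicate 1 had summits at more chromosome tips than the other libraries. Within 20 kb of a chromosome end, a distance chosen after the values were seen, it had 12 summits at 12 of 48 ends, against 4 at 4 ends in replicate 2 and 5 at 5 ends in replicate 3. All 12 lay 10.1 to 10.5 kb from the end, with scores of 6.53 to 21.7 and a median of 12.5. The median was 6.68 in replicate 2 and 4.73 in replicate 3. At 7 ends replicate 1 was alone, and at 2 ends, those of 1q and 10q, all 3 libraries had a summit. The 10q summits are those given above at 10.1 kb from the end. The 4q end had none within 20 kb in any library. Distances are counted from the ends of the assembly's coordinates, and gaps at the tips were not checked. The difference between libraries was not tested.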
